A study of Mus musculus with 30 samples.

Results

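The complement and coagulation genes of the liver are described here in 30 liver libraries of outbred ICR mice. The members are 37 named genes of the complement cascade, the clotting cascade, fibrinolysis and their inhibitors, and all 37 were found by symbol among the 17990 genes of the deposited count table. The dams received a chemical in their drinking water from the first day of pregnancy to weaning, about 40 days, at a target of 5 μg per kg body weight per day. The chemicals were 2,4-BPS, BPSIP, BPS and E2, each at 10 ng/mL in water with 0.001% ethanol, and control dams drank the same ethanol without a chemical. BPS is bisphenol S, 2,4-BPS is an isomer of it with a hydroxyl group at another ring position, and BPSIP is BPS with an isopropyl ether in place of a hydroxyl group. E2 is estradiol, the main estrogen. Livers of the offspring were taken at 10 weeks of age. Each of the 10 groups (5 per sex) held 3 libraries, each labelled as 1 liver. The 3 libraries labelled male control were taken to hold mixed RNA and are treated apart below. The labels describe offspring picked at random from litters of different dams, with 8 dams in a group, without naming the litter of each liver.

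Complement and clotting proteins are made mostly by hepatocytes and secreted into the blood as inactive precursors. In complement, lectins or antibodies trigger a chain of serine proteases that cleaves C4, C2 and then C3, and the terminal components assemble into a pore in the target membrane. In clotting, a chain of proteases turns prothrombin into thrombin, which converts fibrinogen to fibrin; antithrombin and the protein C system restrain it, and plasmin dissolves the clot. Fibrinogen, C3 and C4 are classical acute phase proteins, whose liver transcripts rise in inflammation. For fibrinogen this runs through interleukin-6 and STAT3. Several terminal components are known to differ between male and female mouse liver.

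Libraries held 29711711 to 37719069 counts, and the least abundant member in any library had 1080 counts, so counting error was small for all 37 genes. All 37 passed the filter on low counts in each fit. Levels within a gene are given as CPM, counts scaled to a common library size by TMM factors (edgeR CPM), and tests are edgeR quasi-likelihood tests with p-values adjusted by Benjamini and Hochberg over all genes of a fit; a gene is called at an adjusted p under 0.05. A log2 fold change is given ± its standard error, and a CPM level ± the SD of 3 libraries. The p-values rest on the spread between livers within groups, estimated for each gene over all groups of a fit together. Within single groups of 3 livers, the median coefficient of variation over the members was 1.79% (BPS males) to 6.55% (BPSIP females). The 4 Y-linked genes summed to at most 0.543 CPM in females, to 131.1 to 168.8 CPM in the exposed males and to 84.7 to 95.3 CPM in the 3 libraries labelled male control. Those 3 libraries do not match the other male libraries in this and were taken to hold mixed RNA. Exposed males were therefore compared with each other, and the libraries labelled male control are described by their levels. They also entered the fit of an alternative setting of the male tests. Markers of hepatocytes were high in every library (summed level 83280 to 158300 CPM over 9 genes). In whole liver RNA, fewer cells of a type and less RNA per cell cannot be told apart.

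The members are among the abundant liver transcripts. Together they took 4.51% ± 0.0862 of all counts in control females, and from 4.08% ± 0.0693 in BPS males to 6.50% ± 0.283 in E2 males. Levels between genes were compared per length, as the deposited FPKM. In control females Fgb, the fibrinogen beta chain, led with 2859 ± 85.3 FPKM. It was followed by C3, the central complement component (2082 ± 56.6), and by the gamma and alpha chains Fgg (1627 ± 35.2) and Fga (1396 ± 14.5). Plasminogen (Plg, 1152 ± 37.1 FPKM), antithrombin (Serpinc1, 1067 ± 22.7 FPKM), kininogen (Kng1, 968 ± 8.39 FPKM) and prothrombin (F2, 805 ± 6.12 FPKM) came next. At the low end stood the proteases C2 (32.6 ± 0.369) and Masp1 (18.1 ± 0.749), the anticoagulant cofactor protein S (Pros1, 16.3 ± 0.432) and C6 of the terminal pathway (11.3 ± 0.914 FPKM). C6 was the least abundant member in control females, while in E2 males it stood at 132 ± 7.33 FPKM. The 3 fibrinogen chains kept similar proportions, with a ratio of Fga to Fgb FPKM between 0.485 ± 0.00923 (2,4-BPS females) and 0.562 ± 0.0110 (BPS males) over the 10 groups.

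**Figure D1:**
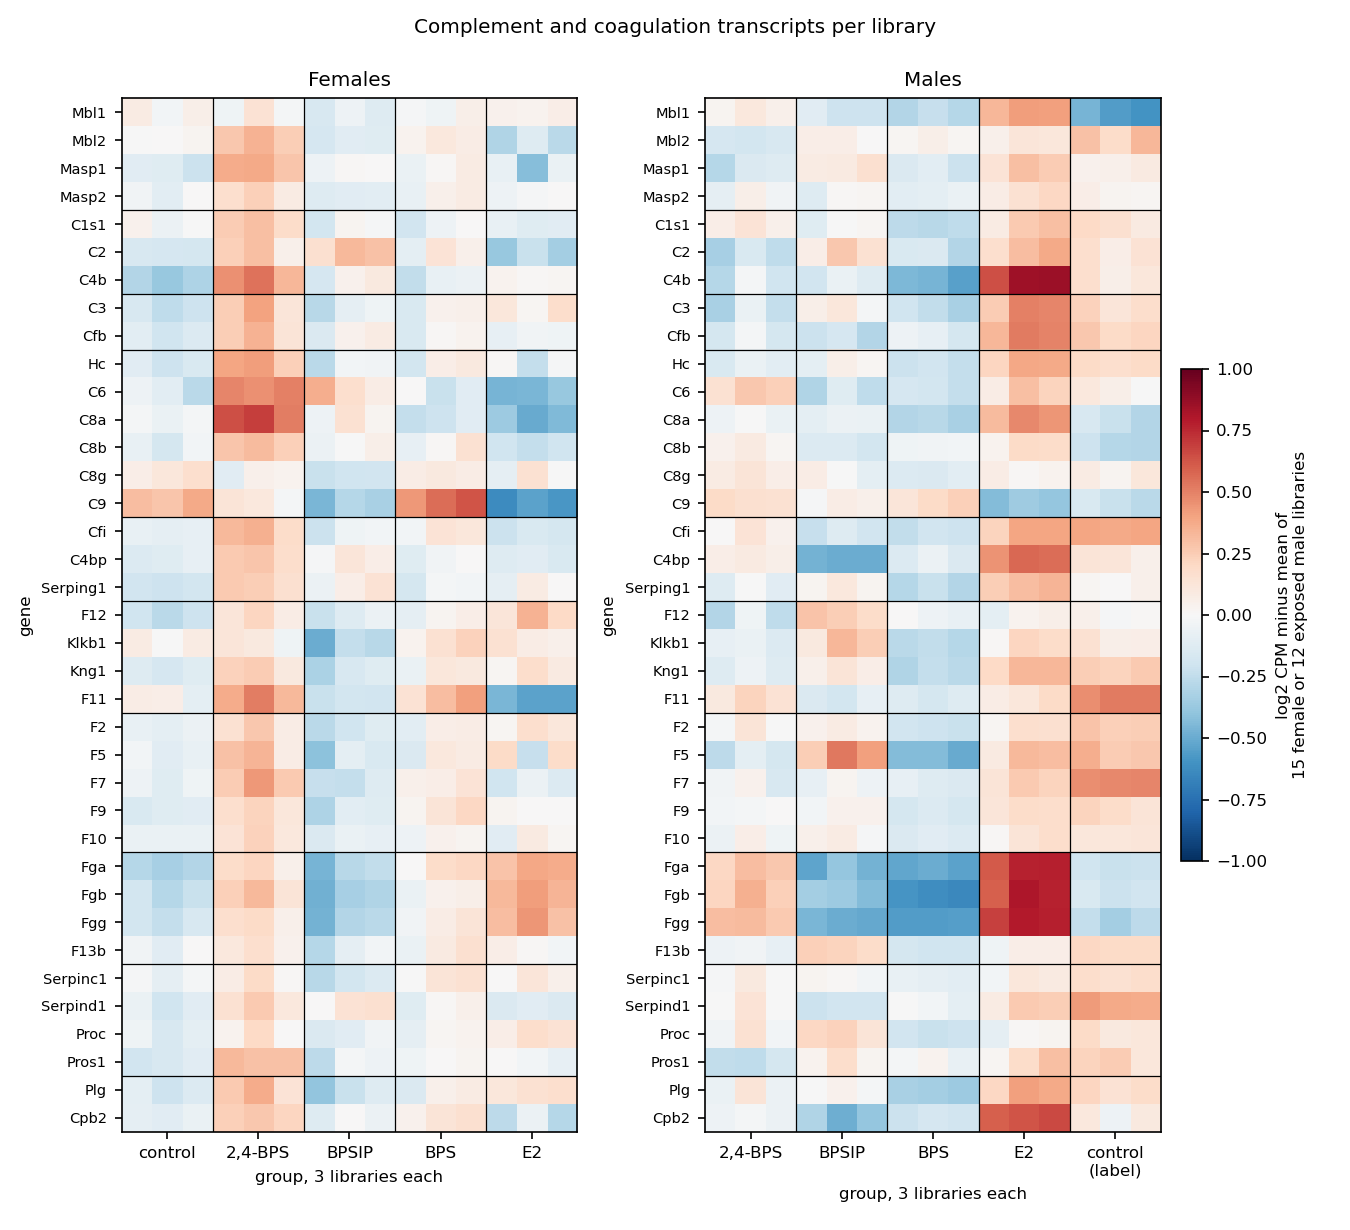
Levels of the 37 genes (rows, ordered by role; lines separate roles) in each library (columns, 3 per group), as log2 CPM minus the gene's mean over the 15 female libraries (left) or the 12 exposed male libraries (right). In females most genes are highest in the 2,4-BPS group, and in exposed males most are highest in the E2 group and lowest in the BPS group; the libraries labelled male control are shown at the right and did not enter the male mean.

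The 3 fibrinogen genes lie next to each other in the RefSeq gene order (Fgg, Fga, Fgb) and are described together below, and C6, C8a, C8b and C9 showed the largest differences between the sexes. Their promoters are therefore shown, from 250 bases before to 50 bases after the RefSeq start site, 5′ to 3′ on the gene's strand in GRCm38.p6. Capitals mark matches on either strand to motifs of factors known in acute phase and liver transcription: TTCNNNGAA (STAT type), TTGCNNAA (C/EBP type), CTGGGAA (interleukin-6 response type) and GTTAAT (HNF1 type). Within a promoter the matches do not overlap.
Fga (chr3:83025903-83026202, plus strand): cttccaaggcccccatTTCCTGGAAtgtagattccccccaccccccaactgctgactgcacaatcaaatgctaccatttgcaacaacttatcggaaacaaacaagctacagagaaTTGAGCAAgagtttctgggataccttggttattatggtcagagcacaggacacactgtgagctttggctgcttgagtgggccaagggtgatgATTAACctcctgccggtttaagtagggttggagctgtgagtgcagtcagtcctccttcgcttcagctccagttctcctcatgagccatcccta
Fgb (chr3:83049814-83050113, minus strand): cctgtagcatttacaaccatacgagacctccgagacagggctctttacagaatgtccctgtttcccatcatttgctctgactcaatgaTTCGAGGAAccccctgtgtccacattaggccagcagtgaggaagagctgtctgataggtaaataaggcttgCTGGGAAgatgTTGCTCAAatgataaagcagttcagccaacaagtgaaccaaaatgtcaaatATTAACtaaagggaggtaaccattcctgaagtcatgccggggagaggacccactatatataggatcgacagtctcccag
Fgg (chr3:83007474-83007773, plus strand): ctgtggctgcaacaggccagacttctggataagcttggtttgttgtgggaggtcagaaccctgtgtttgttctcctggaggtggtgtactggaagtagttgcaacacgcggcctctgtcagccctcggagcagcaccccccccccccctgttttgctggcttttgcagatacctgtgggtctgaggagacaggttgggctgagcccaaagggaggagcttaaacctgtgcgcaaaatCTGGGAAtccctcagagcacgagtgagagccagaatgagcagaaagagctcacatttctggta
C6 (chr15:4726960-4727259, plus strand): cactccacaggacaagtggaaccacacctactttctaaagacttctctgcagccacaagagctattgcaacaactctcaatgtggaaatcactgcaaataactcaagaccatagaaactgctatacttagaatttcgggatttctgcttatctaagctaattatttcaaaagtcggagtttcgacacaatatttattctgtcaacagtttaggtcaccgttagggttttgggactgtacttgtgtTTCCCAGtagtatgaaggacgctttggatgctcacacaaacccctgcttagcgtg
C8a (chr4:104876349-104876648, minus strand): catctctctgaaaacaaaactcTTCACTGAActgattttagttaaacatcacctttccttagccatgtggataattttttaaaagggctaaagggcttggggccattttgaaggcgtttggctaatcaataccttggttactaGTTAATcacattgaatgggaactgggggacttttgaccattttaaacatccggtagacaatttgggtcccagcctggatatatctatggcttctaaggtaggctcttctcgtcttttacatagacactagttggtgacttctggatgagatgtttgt
C8b (chr4:104766067-104766366, plus strand): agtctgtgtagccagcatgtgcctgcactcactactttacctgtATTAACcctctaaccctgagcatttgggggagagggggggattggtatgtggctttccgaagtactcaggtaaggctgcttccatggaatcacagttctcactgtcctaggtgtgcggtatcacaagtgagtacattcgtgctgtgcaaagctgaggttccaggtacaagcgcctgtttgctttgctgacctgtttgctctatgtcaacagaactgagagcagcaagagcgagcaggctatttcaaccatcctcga
C9 (chr15:6445096-6445395, plus strand): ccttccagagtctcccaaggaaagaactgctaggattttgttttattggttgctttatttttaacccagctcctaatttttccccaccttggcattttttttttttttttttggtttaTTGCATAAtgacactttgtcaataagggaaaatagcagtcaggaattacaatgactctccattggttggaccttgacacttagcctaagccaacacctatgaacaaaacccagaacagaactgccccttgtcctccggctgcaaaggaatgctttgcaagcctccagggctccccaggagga
The Fgb promoter held all 4 motifs: its STAT type match lies 162 bases before the start site, the interleukin-6 response type 91, the C/EBP type 80 and the HNF1 type 29 bases before it. Fga held the STAT type, C/EBP type and HNF1 matches, and Fgg the interleukin-6 response type alone. C8a held a STAT type match and an HNF1 type, C8b an HNF1 type, C6 an interleukin-6 response type match and C9 a C/EBP type match. RefSeq promoters were matched for 28 of the 37 members. Of these 28, the STAT type motif occurred in 6, against 8.3% of 32851 mouse promoters of this length, and the C/EBP type in 10, against 10.8%. The interleukin-6 response type occurred in 5 of the 28 (11.1% of all promoters) and the HNF1 type in 8 (7.1%). A member was counted when any of its promoters held the motif, whereas the background counts single promoters. The shares therefore differ in unit and were not tested against each other. A match describes the letters of the window and is not evidence of binding.

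In females exposed to 2,4-BPS most of the set rose. Of the 37 genes, 30 were higher and 1 was lower than in control females, beside 19.3% of all 13874 genes tested called in either direction and 10.9% called higher. Abundant genes are called more often. A second background for member calls by adjusted p is the 2322 genes at least as abundant on average as the least abundant member, Pros1. Of these, 41% were called in either direction and 23.3% higher. Counts past 1.5-fold and counts without overlap are set beside all genes only, with no share of abundant genes. The changes were modest: the median log2 fold change of the members was 0.36, against 0.0034 over all genes, and only C4b, C8a and C6 passed 1.5-fold (beside 5.49% of all genes). The members took 5.54% ± 0.253 of all counts, against 4.51% ± 0.0862 in controls.

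The increase took in both ends of the complement cascade. C4b encodes C4, cleaved by the classical and lectin proteases. It stood at 2005, 2130.5 and 1833 CPM in the 3 exposed livers and at 1189, 1122 and 1181 CPM in the controls (log2 fold change 0.78 ± 0.063, edgeR adjusted p = 7.53e-12). No exposed liver came near the control range. C4b shares near-identical sequence with C4a, which is not among the genes of the table, so its reads may include that copy. C8a, a chain of the pore-forming C8, was measured at 346, 358 and 316 CPM against 219, 212 and 218 CPM (log2 fold change 0.66 ± 0.058, edgeR adjusted p = 2.95e-11). C6, which joins the pore before C8, was low in absolute terms, at 59.0, 57.7 and 59.5 CPM against 40.5, 39.1 and 34.8 CPM (log2 fold change 0.63 ± 0.075, edgeR adjusted p = 3.79e-08). Both genes were separated from the controls without overlap. C3 reached 14110, 15719.9 and 12917 CPM, against 10666, 10002 and 10296 CPM (log2 fold change 0.47 ± 0.069, edgeR adjusted p = 5.74e-06). Of the other terminal components, Hc (complement C5, 0.51) and C8b (0.38) rose on the log2 scale. C9, the component that forms the wall of the pore, went the other way, at 320.4, 314 and 289 CPM against 362, 354 and 380.4 CPM (log2 fold change −0.24 ± 0.057, edgeR adjusted p = 0.0017). C8g, the lipocalin-like C8 gamma chain, was not called (−0.12, adjusted p = 0.134).

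In the lectin pathway 3 of 4 members rose: the proteases Masp1 (0.50 ± 0.068 on the log2 scale) and Masp2 (0.22 ± 0.054) and the mannose-binding lectin Mbl2 (0.28 ± 0.051). The second lectin, Mbl1, was level (−0.0004, 95% interval −0.11 to 0.11). The protease genes C2 (0.37) and C1s1 (0.26) and the alternative pathway protease Cfb (0.40) rose as well, and so did all 3 inhibitors of complement, Serping1 (C1 inhibitor, 0.42), Cfi (factor I, 0.38) and C4bp (C4-binding protein, 0.36). Activators and inhibitors were thus both higher. Reads of C1s1 may be shared with its copy C1s2, and those of Kng1 with Kng2.

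On the clotting side the 3 fibrinogen chains rose by similar amounts. Fga stood at 4938, 5039 and 4485 CPM against 3566, 3453 and 3541 CPM in controls (log2 fold change 0.46 ± 0.061, edgeR adjusted p = 2.84e-07). Fgb was measured at 6431, 6818 and 5952 CPM against 4789, 4459 and 4671 CPM (log2 fold change 0.47 ± 0.057, edgeR adjusted p = 6.35e-08). Fgg was measured at 4204, 4271 and 3877 CPM against 3295, 3167 and 3351 CPM (log2 fold change 0.34 ± 0.058, edgeR adjusted p = 3.38e-05). The exposed and control livers did not overlap for any chain. F13b, the carrier subunit of the fibrin-crosslinking clotting factor, was not called (0.16, adjusted p = 0.0628). Of the contact phase, F11 (0.40), F12 (0.37) and Kng1 (0.34) rose, while prekallikrein (Klkb1) was level (0.013, 95% interval −0.11 to 0.14). In all, 4 procoagulant protease precursors rose, from F7 (0.39), which starts clotting with tissue factor, and F9 (0.30) to F2 (0.25) and F10 (0.23). The cofactor F5 was not called (0.32, adjusted p = 0.112). Among anticoagulants, protein S (Pros1, 0.46), heparin cofactor (Serpind1, 0.30) and protein C (Proc, 0.19) rose, and antithrombin (Serpinc1, 0.14, adjusted p = 0.0692) did not pass. Plasminogen (Plg, 0.41) and the fibrinolysis inhibitor Cpb2 (0.34) rose together. Masp2 and Proc, the smallest of the called increases, lost their call in at least 1 alternative setting.

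Other genes of the same pathways mostly rose where they were called. Of 29 other complement genes tested, 15 were higher and 1 lower. The receptor C5ar1 rose from 2.73 to 6.08 CPM (log2 fold change 1.16) and the liver lectin Colec10 from 47.3 to 78.8 CPM (0.74), and Cfhr2 was the 1 that fell (−0.27). Of 32 other coagulation and fibrinolysis genes 10 were higher, led by the fibrinogen-like Fgl1 (0.56) and by Serpina5, the protein C inhibitor, which stayed scarce (1.84 against 0.315 CPM). A panel of 14 other acute phase genes was higher in all 14, with summed levels of 15570 to 17280 CPM against 9497 to 9939 CPM in controls. Of 8 Kupffer cell markers 7 were higher (summed 1119 to 1192 against 822 to 858 CPM), and 3 of 9 hepatocyte markers were higher (summed 143100 to 158300 against 127700 to 131100 CPM). Sinusoidal endothelial markers were higher in 4 of 8 genes (546 to 574 against 495 to 510.2 CPM). The part of these in the rise of the members was not tested.

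In BPSIP females the members split. Of 37 genes 6 were higher and 8 lower than in controls, beside 38.6% of all genes and 61.9% of abundant genes called. The 14 members called are thus no larger a share than the background. With library totals in place of TMM factors the split was 11 higher and 6 lower, so the direction of the smaller changes depends on the scaling. The median log2 fold change was −0.034. The 6 higher genes were C2 (0.42 ± 0.066), C4b (0.32 ± 0.063), Serping1 (0.24 ± 0.056), C4bp (0.17 ± 0.051), C6 (0.34 ± 0.075) and the thrombin inhibitor Serpind1 (0.23 ± 0.056). Other early or regulatory complement genes, C1s1 (−0.046), Masp1 (0.14), Masp2 (−0.072) and Cfi (−0.017), were not called. C2 had 103, 115 and 113 CPM in BPSIP livers and 82.6, 82.2 and 81.5 CPM in controls. Its neighbour in the genome, Cfb, was not called (0.14, adjusted p = 0.0622).

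The largest decrease in BPSIP females was that of C9, at 213, 239 and 234 CPM against 362, 354 and 380.4 CPM (log2 fold change −0.68 ± 0.057, edgeR adjusted p = 2.96e-12), the only member past 1.5-fold (beside 14.7% of all genes). C8g (−0.32 ± 0.055) fell too, so that within the terminal pathway C6 rose while C9 and C8g fell. In the contact phase Klkb1 was 219.7, 263 and 256 CPM against 329, 310.2 and 328 CPM (log2 fold change −0.39 ± 0.061, edgeR adjusted p = 2.75e-06), and F11, its neighbour in the genome, fell by 0.22 on the log2 scale. Both lectins, Mbl1 (−0.15) and Mbl2 (−0.15), and antithrombin (−0.16) fell slightly. The fibrinogen chains stood near the controls: Fga was measured at 3141, 3582 and 3659 CPM (−0.026, 95% interval −0.15 to 0.10) and Fgb at 3908, 4329 and 4428 CPM (−0.14, adjusted p = 0.0551). Fgg, at 2695, 3044 and 3105 CPM, was called lower (log2 fold change −0.15 ± 0.058, edgeR adjusted p = 0.0371). Replicate 1 was the lowest BPSIP liver for each chain; without it Fgg was no longer called (log2 fold change −0.091, adjusted p = 0.248) and Fga changed sign (0.039), as it did with library totals (0.025). Fgg was also lost without control replicate 1 (adjusted p = 0.097) or control replicate 3 (adjusted p = 0.133). The count of lower members fell from 8 to 4 without BPSIP replicate 1 or control replicate 3, and to 5 without control replicate 1. The calls of Mbl1, Mbl2, C4bp and Serpinc1 were also lost in at least 1 setting. C3 was 9832, 11158 and 11541 CPM (0.07, 95% interval −0.072 to 0.21). The acute phase panel was higher in 12 of 14 genes (13110 to 14460 CPM) and the Kupffer markers in 6 of 8 (1150 to 1321 CPM), and their part in these results was not tested. Of the other complement genes 7 rose, with C5ar1 (1.25) and C1qa (0.77) leading, and 4 fell, among them Fcna (−0.64). Of the other coagulation genes 8 rose, led by the scarce Thbs1 (2.43) and Procr (1.78), and 6 fell, led by tissue factor F3 (−0.99) and F8 (−0.60). Megakaryocyte and platelet markers were higher in 6 of 6 genes (summed 21.1 to 23.8 against 4.01 to 7.20 CPM), and sinusoidal endothelial markers were lower in 5 of 8 and higher in 1 (400.1 to 429.5 against 495 to 510.2 CPM). Their part in the clotting gene changes was not tested.

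In BPS females fewer members rose, and by less. Of 37 genes 14 were higher and 0 lower than in controls by edgeR, beside 16.8% of all genes and 28.9% of abundant genes called in either direction, and 9.32% and 21.6% called higher. DESeq2 also called 0 lower, and 1 was lower at an unadjusted edgeR p under 0.05. The median log2 fold change was 0.15 and none passed 1.5-fold (beside 4.83% of all genes). Fga led, with 4337, 4927 and 5011 CPM against 3566, 3453 and 3541 CPM (log2 fold change 0.44 ± 0.061, edgeR adjusted p = 7.01e-07). Fgb was 5212, 5602 and 5683 CPM (log2 fold change 0.26 ± 0.057, edgeR adjusted p = 0.00139) and Fgg 3651, 3930.5 and 4082 CPM (log2 fold change 0.26 ± 0.058, edgeR adjusted p = 0.0014). No BPS liver lay within the control range for any of the 3 chains. Of the contact phase, F11 (0.28 ± 0.063), F12 (0.24 ± 0.058) and Kng1 (0.20 ± 0.058) rose, and Klkb1 was not called (0.095, edgeR adjusted p = 0.325). Of the procoagulant factors, F9 (0.26 ± 0.056) and F7 (0.16 ± 0.058) rose, while F2 (0.10), F10 (0.082) and F5 (0.10) were not called. F7 kept its call in 3 of 12 settings. Cpb2 (0.21 ± 0.055) rose too. In complement C9 (0.23 ± 0.057), C4b (0.21 ± 0.063), C2 (0.21 ± 0.066), C3 and the C3b-cleaving protease Cfi (0.17 ± 0.057) rose. C3 had 10708, 12289 and 12358 CPM (log2 fold change 0.20 ± 0.069, edgeR adjusted p = 0.0439), and its call was lost without any of control replicates 1, 2 and 3 or BPS replicates 2 and 3 (adjusted p 0.063 to 0.183). BPS females were the one exposed female group in which C9 rose, at 395, 432 and 453 CPM. C8a (−0.14, adjusted p = 0.0915) and C6 (0.041, 95% interval −0.11 to 0.19) were not called. Of the 14 genes, 7 (C2, C4b, C3, Cfi, Kng1, F7 and Cpb2) lost their call in at least 1 alternative setting. The count of higher members depended on single livers: it was 22 without BPS replicate 1, 8 without BPS replicate 2 or control replicate 2, and 7 without BPS replicate 3. With library totals in place of TMM it was 7 higher and 2 lower. The acute phase panel was higher in 10 of 14 genes (10870 to 11920 CPM), and 3 of 8 Kupffer markers were lower (741 to 820 CPM). Of the other complement genes 7 rose, among them C1s2 (0.43), and 1 fell, Vsig4 (−0.19); of the other coagulation genes 3 rose and 2 fell, among them F3 downward (−1.02).

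In E2 females the 3 fibrinogen chains rose, while 3 of the 6 terminal complement genes (C9, C8a and C6) fell and the other 3 were not called. Altogether 11 members were higher and 5 lower than in controls, beside 21% of all genes and 43.5% of abundant genes called. This share is near the background of abundant genes. Past 1.5-fold stood Fga, Fgb and C9 (beside 5.79% of all genes). With library totals 11 were higher and 11 lower. Fga was measured at 5292, 5662 and 5615 CPM against 3566, 3453 and 3541 CPM (log2 fold change 0.65 ± 0.061, edgeR adjusted p = 1.25e-10), Fgb at 6822, 7261 and 6877 CPM (log2 fold change 0.59 ± 0.058, edgeR adjusted p = 3.55e-10) and Fgg at 4639, 5076 and 4576 CPM (log2 fold change 0.54 ± 0.058, edgeR adjusted p = 3.69e-09). For each chain the 3 E2 livers lay above every other female library, by a narrow margin for Fgb. F12, whose human gene is known as estrogen responsive, had 546, 637 and 574 CPM against 437, 415 and 433 CPM (log2 fold change 0.45 ± 0.058, edgeR adjusted p = 1.64e-07). In exposed males its highest group was BPSIP (598 ± 21.6 CPM), above E2 (507 ± 28.9 CPM). Whether the female rise is an estrogen response was not tested. Kng1 (0.23), F2 (0.18), Proc (0.22), Plg (0.29), C4b (0.34), Serping1 (0.19) and C3 also rose. C3 had 12877, 12089 and 13461 CPM (log2 fold change 0.31 ± 0.069, edgeR adjusted p = 0.00132).

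The 5 genes lower in E2 females were C9, C8a, C6, F11 and Mbl2. Of the other terminal components, C8b (−0.13, adjusted p = 0.121), C8g (−0.10, adjusted p = 0.24) and Hc (0.078, adjusted p = 0.576) did not pass. C9 fell to 189, 202 and 196 CPM, from 362, 354 and 380.4 CPM (log2 fold change −0.91 ± 0.057, edgeR adjusted p = 3.6e-15), that is 1.87-fold. F11 was 79.9, 75.9 and 75.6 CPM against 115, 115 and 103 CPM (log2 fold change −0.53 ± 0.064, edgeR adjusted p = 3.97e-08). C8a (−0.40 ± 0.058), C6 (−0.29 ± 0.076) and the lectin Mbl2 (−0.24 ± 0.051) fell too. C2, C6, C8a, C8b, C9 and F11 had their lowest female levels in E2 livers, below every library of the other 4 groups. Without E2 replicate 2 the count of lower members was 8, and the calls of Serping1 and F2 were lost in at least 1 setting. The acute phase panel had 5 genes higher and 4 lower (11720 to 13060 CPM) and the Kupffer markers 5 of 8 lower (725 to 746 CPM), and their part was not tested. Of the other complement genes 3 rose, with Cfhr2 (0.47) leading, and 7 fell, with Fcna (−0.48) and Vsig4 (−0.39) leading; both are made by Kupffer cells. Of the other coagulation genes 7 rose, with Adamts13 (0.56) and Fgl1 (0.41) leading, and 4 fell, with Plau, the urokinase plasminogen activator (−1.10), and F3 (−1.08) leading. Both were scarce, Plau at 0.83 ± 0.41 against 1.77 ± 0.53 CPM and F3 at 2.63 ± 0.37 against 5.56 ± 1.16 CPM. The decreases of F3 with BPSIP, BPS and E2 rest on the same 3 control livers.

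**Figure D2:**
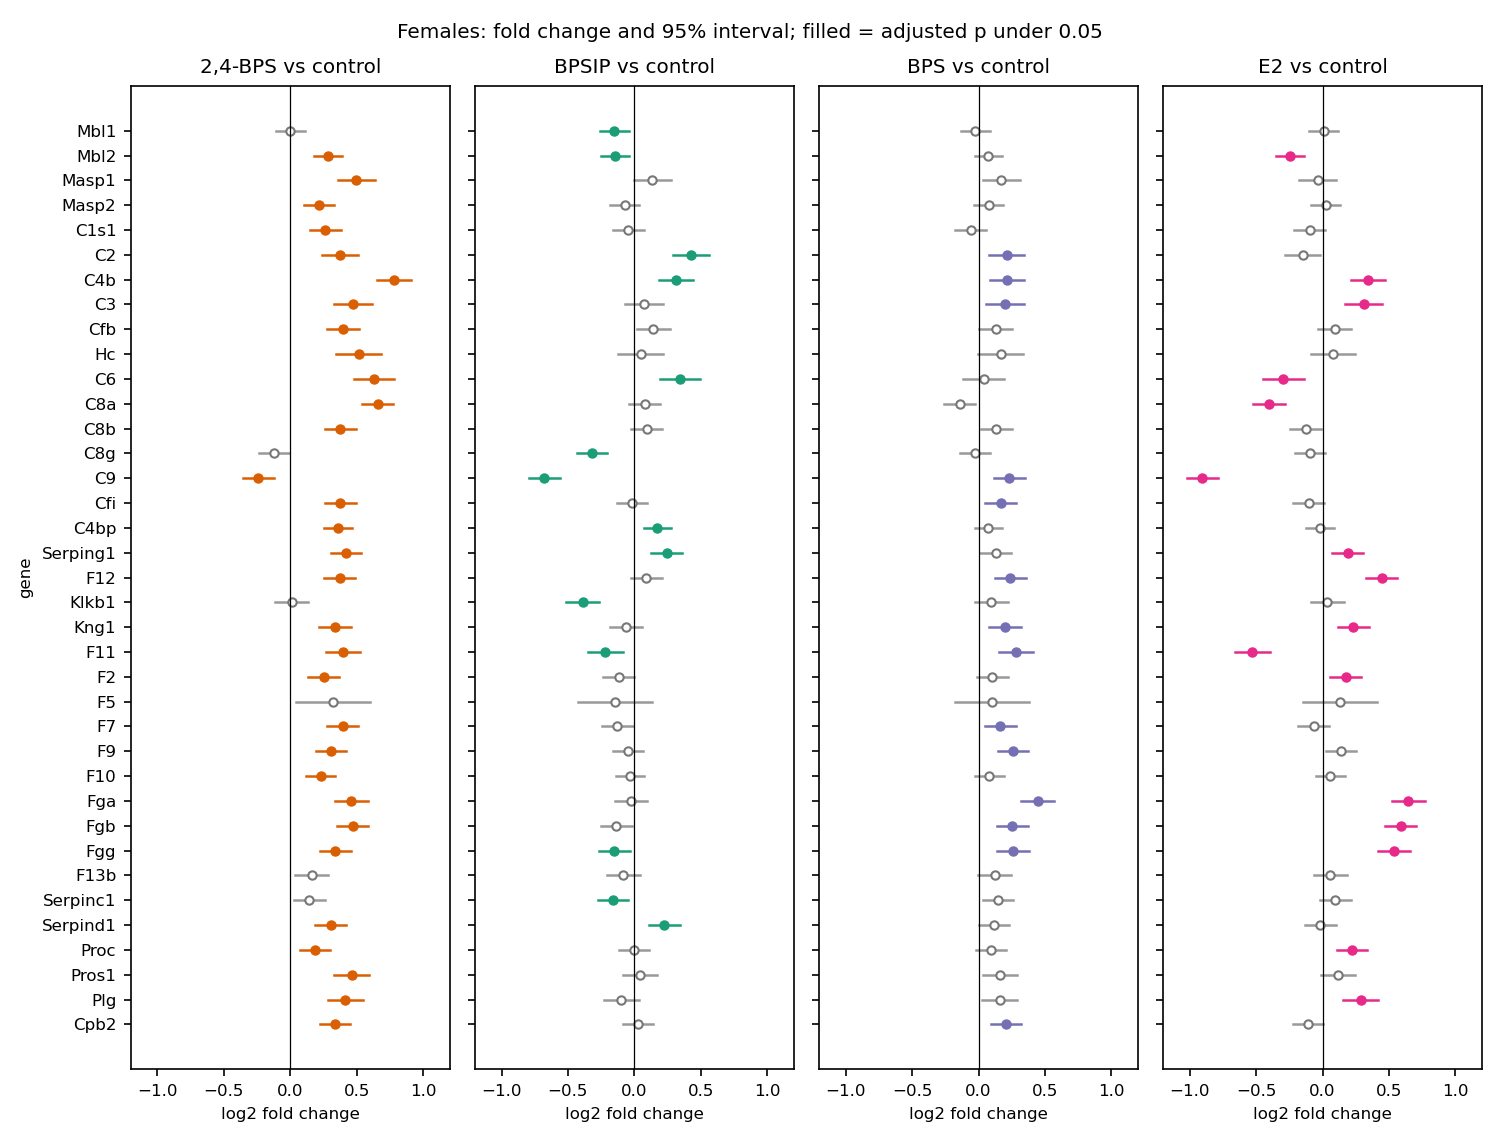
Log2 fold change of each of the 37 genes (rows) in the 4 exposed female groups against control females, with 95% intervals from the edgeR fit (horizontal lines); filled points have an adjusted p under 0.05. All 4 comparisons share the same 3 control livers. In the 2,4-BPS panel 30 points are filled above 0 and only C9 below; in the E2 panel the fibrinogen chains stand above 0.5 and C9 near −0.9.

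Over the 5 female groups, 27 of the 37 genes had their highest mean in 2,4-BPS livers, beside 17.3% of all genes. For 17 of these the 3 livers lay above all 12 other female libraries, beside 3.64% of all genes with this pattern. The share among abundant genes alone is not given for these or the other counts of highest and lowest groups. The 17 were Mbl2, Masp1, Masp2, C1s1, C4b, Cfb, Hc, C6, C8a, C8b, Cfi, C4bp, Serping1, F7, F10, Pros1 and Cpb2. Of these, 13 are complement genes, while the fibrinogen chains were highest in E2 livers without overlap (3 members, beside 4.48% of all genes). The lowest means were found in BPSIP livers for 17 members (beside 27.6% of all genes), 7 of them without overlap (beside 8.76%). E2 livers had the lowest mean for 13 (beside 20.9%), 6 of them without overlap (beside 4.22%). The 7 BPSIP minima comprised 5 clotting genes (Fgb, Fgg, F2, Klkb1 and Serpinc1) and the complement genes Mbl1 and C8g. C9 had its own order, E2 below BPSIP below 2,4-BPS below control below BPS, and none of the 5 groups overlapped its neighbour.

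The 3 bisphenol compounds were given at the same dose over the same time, so their groups were also compared directly, with E2 as the estrogen reference. These 6 pairs of female groups and the 6 male pairs share livers with each other and are not independent. 2,4-BPS was above BPS for 19 members and below it for 1, beside 19.5% of all genes and 36% of abundant genes called. The largest differences were C8a (0.80 ± 0.058), C6 (0.59 ± 0.075) and C4b (0.57 ± 0.063), and C9 was the one lower (−0.47 ± 0.057). The positional isomers were not called different for several clotting genes, Fga (0.015, 95% interval −0.11 to 0.14), Fgg (0.079, 95% interval −0.039 to 0.20), F9 (0.042, 95% interval −0.071 to 0.15) and Serpinc1 (−0.0017, 95% interval −0.12 to 0.11).

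Between the ether compound BPSIP and BPS, most of the called members were lower with BPSIP. BPSIP females were above BPS females for 3 members and below for 19 (39.3% of all genes and 63.2% of abundant genes called), with C9 (−0.91 ± 0.057), F11 (−0.50 ± 0.064), Klkb1 (−0.49 ± 0.061) and the fibrinogen chains Fga (−0.47 ± 0.061), Fgg (−0.41 ± 0.058) and Fgb (−0.39 ± 0.057) lower. Higher were C6 (0.30 ± 0.075), C8a (0.22 ± 0.058) and C2 (0.21 ± 0.066). The 22 members called are no larger a share than that of abundant genes. With library totals, which move the median of all genes by 0.139 here, the split was 9 and 12. The median of the members moved from −0.149 to −0.0103, so the direction of the smaller differences depends on the scaling. C1s1 (0.014, 95% interval −0.10 to 0.13), Cfb (0.013, 95% interval −0.11 to 0.14) and C8b (−0.041, 95% interval −0.16 to 0.075) were not called between these compounds. Set directly against each other, 2,4-BPS was above BPSIP for 35 of the 37 members (35.5% of all genes and 60.3% of abundant genes called; with library totals, which move the median of all genes by −0.149, 26 were higher and 1 lower). The differences were widest for F11 (0.61 ± 0.064), Fgb (0.61 ± 0.058) and C8a (0.58 ± 0.057), and only Serpind1 (0.078, 95% interval −0.037 to 0.19) and C2 (−0.052, 95% interval −0.18 to 0.081) were not called.

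Against E2 females, 2,4-BPS was higher for 22 members and lower for 2, Fga and Fgg (29.8% of all genes and 55.2% of abundant genes called). C8a (1.06 ± 0.058), F11 (0.92 ± 0.064), C6 (0.92 ± 0.076) and C9 (0.66 ± 0.057) differed most. BPSIP was higher than E2 for 10 and lower for 14 (38.4% of all genes and 62.3% of abundant genes called; 15 and 10 with library totals, which move the median of all genes by 0.119), with Fgb (−0.72 ± 0.058), Fgg (−0.69 ± 0.059) and Fga (−0.67 ± 0.061) lowest and C6 (0.64 ± 0.076) and C2 (0.58 ± 0.066) highest. BPS was higher for 11 and lower for 4 (25.6% of all genes and 47.1% of abundant genes called). With library totals 11 were higher and 7 lower. The differences ran from C9 (1.14 ± 0.058) and F11 (0.81 ± 0.064) at the top to Fgb (−0.33 ± 0.057) at the bottom. The 24 members called between BPSIP and E2 are a share near that of abundant genes. The 15 called between BPS and E2 are a smaller share than that of abundant genes. Each fibrinogen chain was called higher in E2 livers against each compound, except that Fgb against 2,4-BPS did not pass (−0.12, adjusted p = 0.131); C9, F11 and C6 were called lower in E2 livers each time. The Fga and Fgg calls against 2,4-BPS were lost without 2,4-BPS replicate 3 (adjusted p up to 0.128 and 0.0652), that of Fga also without E2 replicate 3, and the Fga call against BPS without BPS replicate 1 (adjusted p = 0.102).

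In exposed males the order of the groups was another one: E2 livers held the most of these transcripts and BPS livers the least. All 37 members differed among the 4 exposed male groups in a joint edgeR test, beside 55.1% of all 13289 genes and 91.6% of abundant genes, and 13 of them had group means more than 1.5-fold apart (beside 21% of genes). In females the joint test over the 4 exposed groups also called all 37 (beside 56.4% of all and 85.6% of abundant genes), 7 of them over a 1.5-fold range (26.7%). The female calls of F5 and Mbl1 were weak: F5 (adjusted p = 0.0499) was called in 6 of 17 settings and Mbl1 in 11 of 17, and F13b was lost in 2. In males 28 members had their highest mean in E2 livers (beside 24.5% of genes), 18 of them above every other exposed male library (beside 5.99%). The lowest mean was in BPS livers for 25 members (beside 26.3%), 19 of them without overlap (beside 7.53%). These shares are over all genes, and none is given for abundant genes alone. The share of all counts was 6.50% ± 0.283 in E2 males, 5.04% ± 0.146 in 2,4-BPS males, 4.48% ± 0.0876 in BPSIP males and 4.08% ± 0.0693 in BPS males.

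Fibrinogen had the widest range. Fgb was 9558, 11083 and 10799 CPM in E2 males and 7349, 8072 and 7479.8 CPM in 2,4-BPS males. In BPSIP males it was 5006, 4918 and 4688 CPM and in BPS males 4205, 4118 and 4039 CPM, a log2 range of 1.37 between group means (joint edgeR adjusted p = 1.11e-29). The 4 groups followed each other without overlap. Fgg ranged from 3004, 2995 and 3011 CPM (BPS) and 3219.6, 3138 and 3093 CPM (BPSIP) through 5468, 5489 and 5304 CPM (2,4-BPS) to 7093, 7635 and 7572 CPM (E2), a log2 range of 1.33 (adjusted p = 3.3e-42). Fga had the same order, with 3592, 3652 and 3551 CPM in BPS and 3571, 3945 and 3719 CPM in BPSIP males, whose libraries overlapped. It stood at 5968, 6386 and 6216 CPM in 2,4-BPS and 7877, 8805 and 8841 CPM in E2 males (log2 range 1.26, adjusted p = 9.57e-38). BPS and BPSIP males were thus the low pair for all 3 chains.

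**Figure D3:**
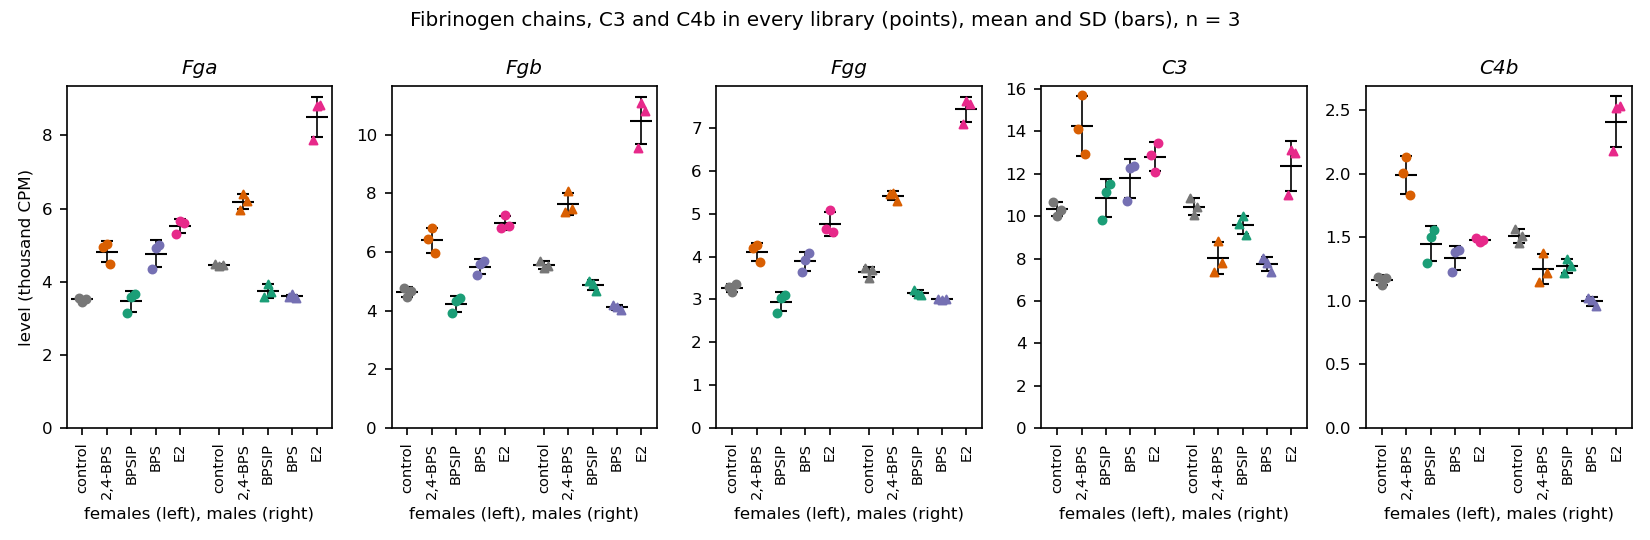
Levels (axes in units of 1000 CPM, from 0) of the fibrinogen genes Fga, Fgb and Fgg and of C3 and C4b in each of the 30 libraries; points are libraries (circles female, triangles male), bars the mean and SD of 3. E2 males stand above every other group for the 3 chains, with Fgb at 9558 to 11083 CPM, while 2,4-BPS females lead the female groups for C4b.

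Complement followed fibrinogen in part. C4b was 2181, 2518 and 2531 CPM in E2 males, and the other 3 groups lay far below: 1148, 1379 and 1218 CPM (2,4-BPS), 1222, 1332 and 1275 CPM (BPSIP) and 1024, 1009.7 and 959 CPM (BPS), a log2 range of 1.29 (adjusted p = 4.75e-10). C4bp, the soluble inhibitor that binds C4b, had 734, 802 and 795 CPM in E2 and 563, 572 and 562 CPM in 2,4-BPS males. In BPS males it stood at 488, 518 and 488 CPM and in BPSIP males at 388, 383 and 382 CPM (log2 range 1.02, adjusted p = 3.5e-29), so that its lowest group was BPSIP and not BPS. C3 had 11007, 13131 and 12989 CPM in E2 males, 9615, 9991 and 9130.2 CPM in BPSIP, 7378, 8840.1 and 7812 CPM in 2,4-BPS and 8027, 7771 and 7382 CPM in BPS males (log2 range 0.70, adjusted p = 0.000292). Cpb2 ranged over 1.02 log2 units, with 718 ± 16.2 CPM in E2 against 355 ± 23.3 CPM in BPSIP males. F5 broke the order: it was highest in BPSIP males, at 743, 904 and 835 CPM, and lowest in BPS males, at 465, 464 and 442 CPM (log2 range 0.87). BPSIP males also had the highest F12 and F13b, each without overlap with the other exposed males (beside 6.48% of all genes). C9 ran opposite to the rest, with its lowest level in E2 males (1282, 1349.9 and 1326 CPM) and its highest in BPS males (1886, 1977 and 2043 CPM), which overlapped the 2,4-BPS males (1978, 1932 and 1922 CPM). At the steady end, antithrombin (Serpinc1) varied over 0.17 and C8g over 0.23 log2 units.

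By pairs, BPS males were below E2 males for 34 members and above for 1, C9 (37.7% of all genes and 71.2% of abundant genes called; 29 and 1 with library totals, which move the median of all genes by 0.116). In all 12 passed 1.5-fold (beside 9.81% of all genes), led by Fgb (−1.37 ± 0.041), Fgg (−1.33 ± 0.036), C4b (−1.29 ± 0.067) and Fga (−1.26 ± 0.039). All 3 complement regulators, all 5 procoagulant factors and all 4 anticoagulants were called lower in BPS males, but among the anticoagulants the calls of Serpinc1, Proc and Pros1 were lost with library totals, and that of Pros1 also without E2 replicate 3. 2,4-BPS males were below E2 males for 28 and above for 1, C9 (28.5% of all genes and 61% of abundant genes called), with C4b (−0.96 ± 0.066), Cpb2 (−0.68 ± 0.043) and C3 (−0.64 ± 0.085) leading. BPSIP males were below for 23 and above for 4, C9, F12, Proc and F13b (26.6% of all genes and 55.6% of abundant genes called), with Fgg (−1.25 ± 0.036), Fga (−1.19 ± 0.039) and Fgb (−1.11 ± 0.041) leading.

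Among the bisphenols in males, 2,4-BPS was above BPS for 25 members and below for 3 (27.8% of all genes and 54.5% of abundant genes called). Its lead was widest for Fgb (0.90 ± 0.041), Fgg (0.86 ± 0.035) and Fga (0.79 ± 0.039), while Mbl2 (−0.19 ± 0.042), Pros1 (−0.19 ± 0.064) and F12 (−0.14 ± 0.049) were lower. The Pros1 call was lost without 2,4-BPS replicate 1 or 2 or BPS replicate 2, and the F12 call without 2,4-BPS replicate 1 or 3 or BPS replicate 1 or 2. C9 (−0.0083, 95% interval −0.086 to 0.069) and Cfb (−0.012, 95% interval −0.11 to 0.082) were not called between the isomers. BPSIP was above BPS for 22 and below for 5 (35.7% of all genes and 66.6% of abundant genes called), with F5 (0.87 ± 0.071), Klkb1 (0.51 ± 0.049) and F13b (0.42 ± 0.044) at the top and C4bp (−0.36 ± 0.042) at the bottom. Fga was not called there (0.072, 95% interval −0.005 to 0.15). 2,4-BPS and BPSIP divided the members evenly, 13 each way (31.6% of all genes and 59.7% of abundant genes called). The fibrinogen chains (0.78, 0.72 and 0.64 for Fgg, Fga and Fgb), C4bp (0.55), C6 (0.44) and Cpb2 (0.34) were higher with 2,4-BPS, and F5 (−0.58), F12 (−0.44) and C2 (−0.41) with BPSIP. The acute phase panel summed to 47990 to 53450 CPM in E2 males, 14450 to 15260 CPM in BPS, 12380 to 13480 CPM in 2,4-BPS and 9093 to 9529 CPM in BPSIP males. All 14 of its genes were lower in each of the other 3 exposed male groups than in E2 males. The 5 neutrophil markers tested were also lower in each of these groups (summed over 6 listed genes, 4.89 to 19.9 CPM against 38.9 to 40.7 CPM in E2 males). Of the 8 Kupffer markers 6 were lower in 2,4-BPS males, 5 in BPS males and 2 in BPSIP males than in E2 males, and 1 was higher in each. The part of these lists in the results was not tested.

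Between the sexes, over the 4 exposed groups of each, 16 members were higher and 14 lower in females, beside 58% of all genes called. Of the abundant genes 78.5% were called, 28.1% higher and 50.3% lower. The 30 members called are a share near that of abundant genes. The terminal complement pathway held the largest differences. All 6 of its members were lower in females, and these by the most: C6 (−3.29 ± 0.033, 9.81-fold), C9 (−2.64 ± 0.027, 6.24-fold), C8a (−2.32 ± 0.028, 4.99-fold) and C8b (−2.06 ± 0.027, 4.16-fold), with edgeR adjusted p from 5.17e-51 to 1.19e-55.

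C6 levels ran from 30.5 to 59.5 CPM (median 43.1) in the 12 exposed female livers and 344 to 522 CPM (median 419) in the 12 exposed male livers. C8a ran from 156 to 358 CPM (median 210) in the 12 exposed female livers and 889.5 to 1561 CPM (median 1069.8) in the 12 exposed male livers. The sexes were far apart for both, with no overlap. C8b ran from 135 to 199 CPM (median 160.2) in the 12 exposed female livers and 595 to 773 CPM (median 673) in the 12 exposed male livers. C9, the last component to join, ran from 189 to 453 CPM (median 264) in the 12 exposed female livers and 1282 to 2043 CPM (median 1855) in the 12 exposed male livers. C8a and C8b are neighbours in the genome, whereas the third chain of C8, encoded by C8g elsewhere, barely differed (−0.063 ± 0.027, adjusted p = 0.0416; 286 to 371 CPM in females, 310.4 to 375 CPM in males), a call lost in at least 1 setting. Hc, upstream of C6, was lower in females by a smaller amount (−0.51 ± 0.036). In each exposure the 4 genes were called lower in females. C6 was 15.8-fold lower in E2 females than in E2 males, and 7.43-fold lower with BPSIP. C8a was 9.17-fold lower with E2 and 3.19-fold lower with 2,4-BPS.

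**Figure D4:**
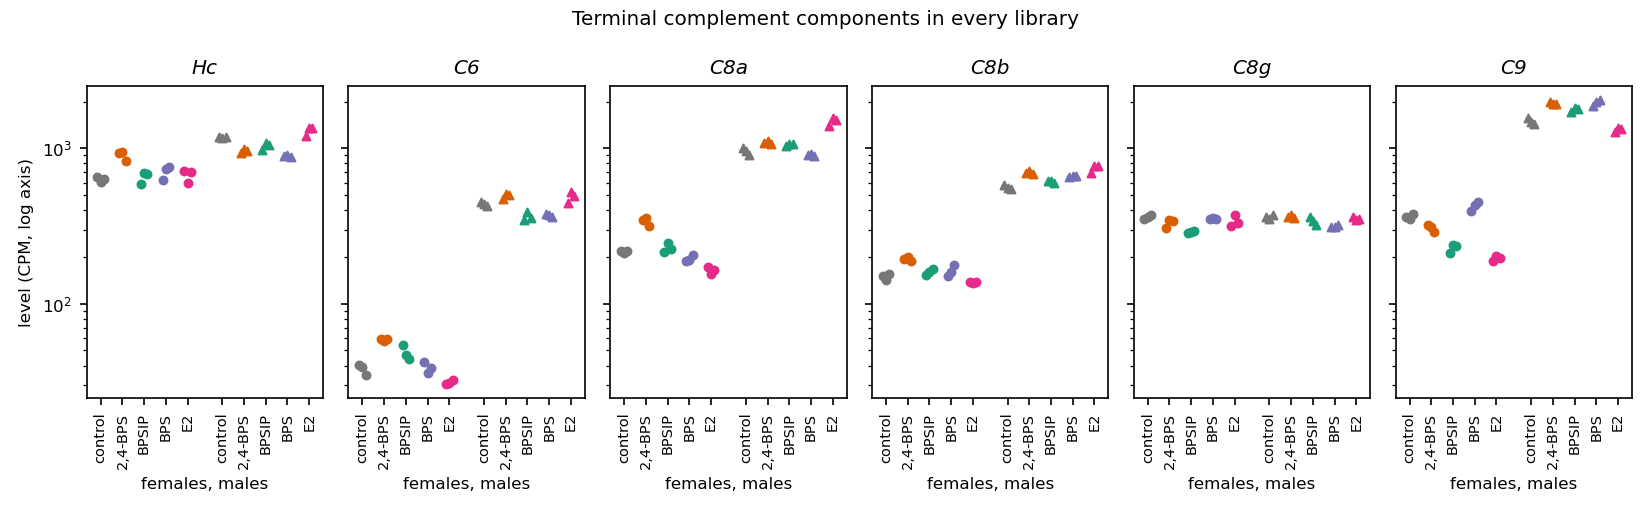
Levels (CPM, log axis) of the 6 terminal complement genes in each of the 30 libraries, females as circles at the left of each panel and males as triangles at the right. C6, C8a, C8b and C9 are separated between the sexes in every exposed group, while the female and male ranges of Hc and C8g overlap.

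Outside the terminal pathway the sex differences were smaller. The largest toward females was Mbl2 (0.59 ± 0.024, adjusted p = 9.04e-28), with 492 to 769 CPM (median 589.9) in the 12 exposed female livers and 355 to 438 CPM (median 413) in the 12 exposed male livers. Its counterpart Mbl1 was lower in females (−0.63 ± 0.025), so the 2 mannose-binding lectins had opposite sex differences. F7 (0.50 ± 0.03, adjusted p = 5.55e-21) had 102 to 162 CPM (median 119.6) in the 12 exposed female livers and 76.7 to 103 CPM (median 83.5) in the 12 exposed male livers. Kng1 (0.48 ± 0.027) had 1987 to 2949.8 CPM (median 2643) in the 12 exposed female livers and 1484 to 2301 CPM (median 1826) in the 12 exposed male livers. C3 (0.42 ± 0.041) had 9832 to 15719.9 CPM (median 12323) in the 12 exposed female livers and 7378 to 13131 CPM (median 8985) in the 12 exposed male livers. In all, 4 of 5 procoagulant factors (F7, F10, F2 and F5) were called higher in females, although F5 (0.14 ± 0.058, adjusted p = 0.0456) was called in 8 of 29 settings only. The 3 fibrinogen chains were slightly lower (Fga −0.17, Fgb −0.16, Fgg −0.19), an average over groups with different orders in the 2 sexes. Of the other complement genes Cfp (properdin, 1.25) and C1qa (1.00) were higher in females, and Clu (clusterin, −0.67) was lower. All 8 Kupffer markers and 7 of 8 sinusoidal endothelial markers were higher in females. Of 9 hepatocyte markers 3 were higher and 5 lower, although their sum was higher in females (118900 to 158300 against 83280 to 108200 CPM). The part of these lists in the sex differences was not tested.

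The position of each exposure among the others was compared between the sexes without controls. Each exposed group was set against the mean of the other 3 exposed groups of its sex, and the female minus male difference of this deviation was tested. The 2,4-BPS deviation was more positive in females for 27 members and less for 2 (27.2% of all genes and 54% of abundant genes called), the BPS deviation more positive for 26 (28.5% of all genes and 55.3% of abundant genes called; 18 with library totals, which move the median of all genes by −0.125), and the E2 deviation more positive for 1 and less for 29 (29.6% of all genes and 59.3% of abundant genes called). The BPSIP deviation differed for 25, 7 more positive and 18 less (41.4% of all genes and 67.2% of abundant genes called; 13 and 11 with library totals, which move the median of all genes by 0.124). The share of members called for BPSIP is near that of abundant genes. Since each deviation contains the other 3 groups, the 4 tests are not independent. The median deviation was 0.231 for 2,4-BPS females and −0.0163 for 2,4-BPS males, and −0.0878 for E2 females and 0.291 for E2 males, all on the log2 scale.

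C8a and C4b carried the largest differences for both 2,4-BPS and E2. With 2,4-BPS, C8a deviated by 0.81 in females and −0.049 in males (difference 0.86 ± 0.061, edgeR adjusted p = 7.73e-17), and C4b by 0.48 in females and −0.22 in males (0.70 ± 0.077, adjusted p = 5.26e-09). With E2 the sign turned: C8a deviated by −0.62 in females and 0.55 in males (−1.17 ± 0.062, adjusted p = 2.82e-22), and C4b by −0.11 in females and 1.05 in males (−1.15 ± 0.078, adjusted p = 2.32e-14). E2 livers were thus the lowest female and the highest male group for C8a. With BPS the fibrinogen chains differed most, Fga by 0.078 in females and −0.71 in males (0.79 ± 0.064, adjusted p = 2.83e-14) and Fgb by −0.059 in females and −0.84 in males (0.78 ± 0.061, adjusted p = 3.27e-15). With BPSIP the largest were F5, which deviated by −0.30 in females and 0.54 in males (−0.84 ± 0.13, adjusted p = 5.38e-05), and Klkb1, by −0.41 in females and 0.31 in males (−0.72 ± 0.07, adjusted p = 1.94e-12). Some members deviated the same way in both sexes. C9 was low with E2 (−0.69 in females and −0.52 in males), and the fibrinogen chains were high with E2 in both sexes (Fga 0.34 in females and 0.96 in males) and low with BPSIP (Fga −0.52 in females and −0.61 in males, difference 0.091, 95% interval −0.038 to 0.22).

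**Figure D5:**
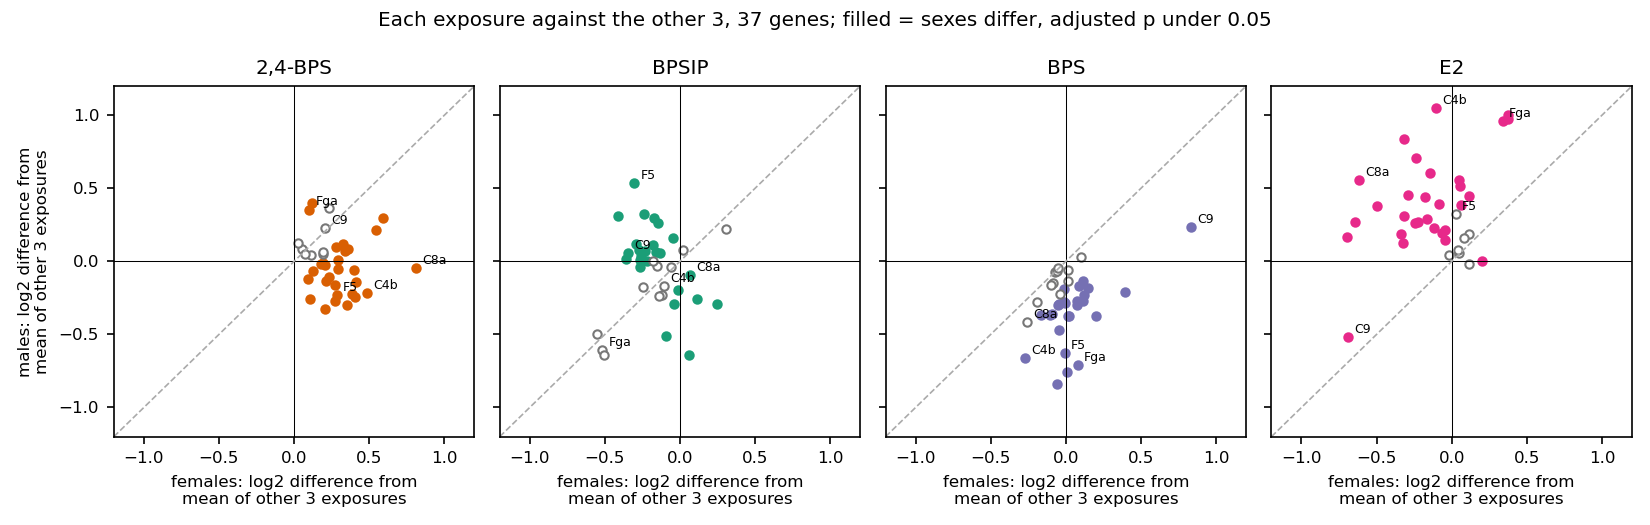
For each exposure, the log2 difference of each of the 37 genes from the mean of the other 3 exposed groups, in females (horizontal axis) and males (vertical axis); the dashed line marks equal values, and filled points differ between the sexes at an adjusted p under 0.05. For 2,4-BPS all points lie right of 0 with males on both sides of 0, and for E2 most lie above the dashed line, C8a and C4b farthest.

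The libraries labelled male control are given here as levels. For C6 (439.5 ± 15.6 CPM), C8a (956 ± 44.2 CPM) and C8b (563 ± 18.5 CPM) all 3 libraries lay above the 15 female libraries. C9 was 1493 ± 61.7 CPM there, against 1319 ± 34.5 CPM in E2 males and 365 ± 13.7 CPM in control females. Fgb was 5560.2 ± 128 CPM and C3 10439 ± 404 CPM. F11 was 139 ± 3.08 CPM, F7 119.5 ± 1.15 CPM and Mbl1 281 ± 13.5 CPM. With Y-linked transcripts below those of exposed males in these libraries, no exposure was tested against them.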

How the data were processed

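Total RNA of offspring livers was sequenced in 30 libraries, prepared with a SMARTER mRNA kit, per the labels' protocols. The authors deposited a table of raw read counts per gene and of FPKM values. HISAT2, HTSeq, DESeq2 and R 3.2.0 are named in the submitters' processing notes; no source used here gives the genome build, the annotation or the strand setting. The deposited FPKM equalled counts divided by the library sum and the gene length, with a largest relative deviation of 3.46e-06. The members and gene lists were chosen with earlier results of these data known.

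From the counts, edgeR 4.0.16 (R 4.3.3) fitted robust quasi-likelihood models with TMM factors (0.939 to 1.12) and filterByExpr, on the 15 female libraries, the 12 exposed male libraries, or all 24 exposed libraries. Adjustment of p-values (Benjamini and Hochberg) ran over all genes of a fit, and a second call rule added a change of at least 1.5-fold. The code was tested on simulated data. Alternatives were RLE factors, library totals, no filter, DESeq2 1.42.0, a replicate block, the 6 compared libraries alone, and leaving out each library. For the male tests, a further alternative added the libraries labelled male control to the fit. All members could be named, by role. By rule, per-library values go to the called members past 1.5-fold in female comparisons with controls, the 5 widest male ranges, the 4 largest sex differences each way, the 2 largest sex differences per exposure, fibrinogen and C3. Some members outside this rule also have them. In females these include C2 and Klkb1 with BPSIP, F12 and F11 with E2, and C9 with 2,4-BPS and BPS. Other pathway genes named are up to the 2 largest called changes each way at a mean of at least 1 CPM; some of these are not reported here. Total counts per library ranged from 29711711 to 37719069.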

Additional observations from a re-analysis of the deposited data

Results flagged for a closer look

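The position of each exposure relative to the other 3 exposures was compared between the sexes by a test of the female minus male difference (edgeR, adjusted over all genes, 3 livers per group). It differed for 29 members with 2,4-BPS, 26 with BPS, 25 with BPSIP and 30 with E2, beside 54%, 55.3%, 67.2% and 59.3% of abundant genes. The BPSIP count is near that background, and its split of 7 higher and 18 lower became 13 and 11 with library totals. For 2,4-BPS the largest differences were C8a (0.86 on the log2 scale) and C4b (0.70), higher in females. With E2 the same genes differed the other way, C8a by −1.17 and C4b by −1.15. With BPS, Fga (0.79) and Fgb (0.78) stood relatively higher in females, and with BPSIP, F5 (−0.84) and Klkb1 (−0.72) relatively lower. The acute phase panel differed by sex and exposure as well, reaching 47990 to 53450 CPM in E2 males and 11720 to 13060 CPM in E2 females, and its part in these differences was not tested.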

How the results depend on the processing

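All called members kept their direction in every setting in which they were called. Among the members called in each comparison with control females, 29 of 31 (2,4-BPS), 9 of 14 (BPSIP), 7 of 14 (BPS) and 14 of 16 (E2) were called in all 12 settings. Between the sexes it was 28 of 30 in all 29 settings, and for the differences of deviations 27 of 29 (2,4-BPS), 16 of 25 (BPSIP), 18 of 26 (BPS) and 27 of 30 (E2). Over the 6 female pairs 102 of 140 calls held in all settings, and over the 6 male pairs 141 of 172. The joint tests called 34 of 37 in all 17 female settings and 36 of 37 in all 18 male settings. The male settings, for the pairs and the joint test, included a fit with the libraries labelled male control.

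With library totals in place of TMM factors, a choice made after seeing the data, BPSIP had 11 higher members (6 with TMM), BPS 7 higher and 2 lower (14 and 0), E2 11 lower (5) and 2,4-BPS 2 lower (1), and Fga in BPSIP females turned from −0.026 to 0.025, uncalled in both. In the 6 libraries of the compared groups alone, 2,4-BPS had 2 lower members and BPS 1 lower member. Requiring 1.5-fold left 3 higher and 0 lower (2,4-BPS), 0 higher and 1 lower (BPSIP), 0 higher (BPS), and 2 higher and 1 lower (E2). The same rule left 11 higher and 4 lower over the 6 female pairs (100 and 40 without it), 7 and 23 over the 6 male pairs (66 and 106), 1 and 5 between the sexes, 12 and 16 for the deviations (61 and 49), and 7 and 13 in the joint tests of females and males. Leaving out 1 library at a time, the lower count ranged from 4 to 9 for BPSIP and from 5 to 8 for E2, the higher count from 7 to 22 for BPS, and Fga in BPSIP females from −0.068 to 0.039.

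The labels tie replicate numbers to no shared animal or litter. Of 60 pairs of same-numbered libraries, 6 had deviations that correlated above 0.1 (range −0.293 to 0.253, median −0.00895). With a replicate block the counts of higher and lower members were 30 and 1 (2,4-BPS), 6 and 9 (BPSIP), 12 and 0 (BPS), and 11 and 5 (E2). They were 100 and 40 over the female pairs, 67 and 110 over the male pairs, 16 and 14 between the sexes, 64 and 49 for the deviations, and 36 and 37 in the joint tests.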

Other observations

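Genes for liver transcription factors and acute phase signalling, a list of 13, were also compared with control females. Of these, 9 rose in 2,4-BPS livers, 8 in BPS livers and 5 in E2 livers, while in BPSIP livers 3 rose and 4 fell. Of abundant genes, 23.3% were called higher with 2,4-BPS and 21.6% with BPS. In either direction, 43.5% were called with E2 and 61.9% with BPSIP. Hnf4a, a master regulator of hepatocyte genes, stood at 834 ± 34.4 CPM in 2,4-BPS livers against 609 ± 21.3 CPM in controls (log2 fold change 0.46 ± 0.051, edgeR adjusted p = 9.55e-09). The list summed to 1922 to 2046 CPM in 2,4-BPS and 1926 to 2040 CPM in BPS livers, against 1524 to 1588 CPM in controls.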
